A study of Mus musculus with 13 samples.

Results

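The genotype difference of the LPS response was measured in whole kidney of 13 mice: for every gene, the change from saline to lipopolysaccharide (LPS) in Dsbal knockout mice minus the same change in wild-type mice. All 13 libraries of the series enter it, since it needs all 4 groups, and it was computed for every gene abundant enough to test, 15703 of 34745. The groups were Dsbal knockout given LPS (3 libraries, AKI-156, AKI-320 and AKI-381), wild type given LPS (4 libraries, AKI-12, AKI-13, AKI-317 and AKI-319), Dsbal knockout given saline (3 libraries, N1 to N3) and wild type given saline (3 libraries, N1 to N3). Injections were intraperitoneal, with an LPS dose of 10 mg/kg or 200 µL of saline. The labels call the saline mice naive and each library renal tissue. The age, the strain, the time between injection and sampling, how the knockout was made and the sex of the mice are not stated in the sources used. The numbers were read as 1 mouse each, which no label states, so the p-values measure the spread between these libraries.

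LPS, a component of the outer membrane of Gram-negative bacteria, is bound by CD14 and TLR4, which signal through NF-kB, AP-1 and interferon regulatory factors to immediate-early genes, cytokines and, through secreted interferons, to interferon-stimulated genes. Injected LPS is a common model of septic acute kidney injury, in which tubule cells lose transporter transcripts and gain injury and defence transcripts. DsbA-L is the product of Gstk1, a thiol-handling protein of the glutathione transferase kappa class found in mitochondria and peroxisomes. A genotype difference of a response has an LPS part, knockout minus wild type under LPS, and a saline part, knockout minus wild type with saline with its sign turned. On the log2 scale of the model these parts add up to the difference exactly, so the share that comes from the saline groups can be stated for each gene.

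The targeted gene followed its label in all 13 libraries. Gstk1 stood at 0.0643, 1.58 and 1.08 CPM (read counts normalised for library size and composition by TMM) in knockout LPS kidneys and at 41.8, 21.2, 22.9 and 33.8 CPM in wild-type LPS kidneys. With saline it stood at 3.77, 2.51 and 2.63 CPM in knockout and at 54.1, 40.5 and 52.0 CPM in wild type. Values are given here and below in the order AKI-156, AKI-320 and AKI-381, then AKI-12, AKI-13, AKI-317 and AKI-319, then N1 to N3 of each saline group. The genotype groups did not overlap under either treatment, and the response itself did not differ beyond the spread (log2 difference -0.97 ± 0.65 SE, edgeR adjusted p = 0.402). Libraries held 14372212 to 17668334 counts. The share of counts from mitochondrially encoded genes was 12.6% to 16.6% in knockout LPS kidneys, 15.7% to 22.9% in wild-type LPS kidneys and 21.4% to 22.6% with saline.

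A property of the design touches every value that follows. Xist, the transcript of the inactive X chromosome, stood at 0.257, 0.352 and 0.569 CPM in knockout LPS kidneys and at 0.147, 0.143, 0.195 and 0.683 CPM in wild-type LPS kidneys, against 683 to 1098 CPM in knockout saline and 1123 to 1205 CPM in wild-type saline kidneys. Ddx3y, a gene of the Y chromosome, stood at 57.2 to 129.6 CPM in knockout LPS and 72.2 to 219.6 CPM in wild-type LPS kidneys and had 0 counts in all 6 saline libraries. The LPS libraries thus carried a male pattern and the saline libraries a female one, in both genotypes. A genotype difference in the response to LPS and a genotype difference between the sexes therefore cannot be told apart in these data. In whole tissue, fewer cells of a type and less RNA per cell cannot be told apart either.

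The LPS response differed between genotypes for 330 of 15703 genes (2.1%, edgeR adjusted p below 0.05), with 213 higher in the knockout (1.36%) and 117 lower (0.745%). The smallest adjusted p was 0.00375, 3487 genes had an unadjusted p below 0.05, and the median difference over all tested genes was 0.00 on the log2 scale. Of the 330 genes, 299 were protein-coding. Their median absolute difference was 1.97 on the log2 scale, and the threshold fell between Chordc1 (1.27 ± 0.31 SE, adjusted p = 0.0498) and Gpr146 (1.45 ± 0.35 SE, adjusted p = 0.05001). In a simulation on the means and depths of these libraries, the same test called 6% of genes given a log2 difference of 1, 74% at 2 and 92% at 3. The differences were put only in genes with a mean of at least 5 CPM, and each gene had 1 spread shared by all groups. Within those limits small differences were mostly out of reach.

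In most of the called genes the estimated responses had the same sign in both genotypes and the knockout estimate was the smaller one. In 158 genes (47.9%) the wild type fell under LPS and the knockout estimate was less negative, with a median knockout response of -0.82 and a median wild-type response of -3.12 (log2). In 85 genes (25.8%) the wild type rose and the knockout estimate was less positive, with medians of 1.02 in the knockout and 2.90 in the wild type. The knockout response itself passed the test in 70 of the 158 and 57 of the 85, together 127 of the 330 (38.5%). Together the 2 classes made 73.6% of the called genes, where they held 31.1% (smaller rise) and 29.8% (smaller fall) of all tested genes. The estimates had opposite signs in 73 further genes, 47 higher in the knockout and lower in the wild type, and 26 the other way round (14.2% and 7.88%, against 10.1% and 8.5% of all tested genes). The knockout response was the larger one in 14 genes, with 8 larger rises (2.42%, against 10.4% of all tested genes) and 6 larger falls (1.82%, against 10.2%). The larger rises were Dtx4, Dcdc2a, Col3a1, Frzb, Emilin1, Tgfbi, Sdf2l1 and Aldh1a2, of which Col3a1, Emilin1 and Tgfbi encode proteins of the extracellular matrix.

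The same ordering held over genes that responded to LPS at all. The 4458 genes called higher under LPS in the wild type (28.4%) had a median response of 0.66 in the knockout and 1.19 in the wild type, and the 4496 called lower there (28.6%) had medians of -0.68 and -1.45. Genes chosen for their wild-type response tend to be larger in the wild type by that choice. The 2310 genes called higher in the knockout (14.7%) had medians of 1.22 in the knockout and 1.51 in the wild type, and the 2024 called lower in the knockout (12.9%) had medians of -1.29 and -1.58, so the knockout response was the smaller one under either choice.

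**Figure D1:**
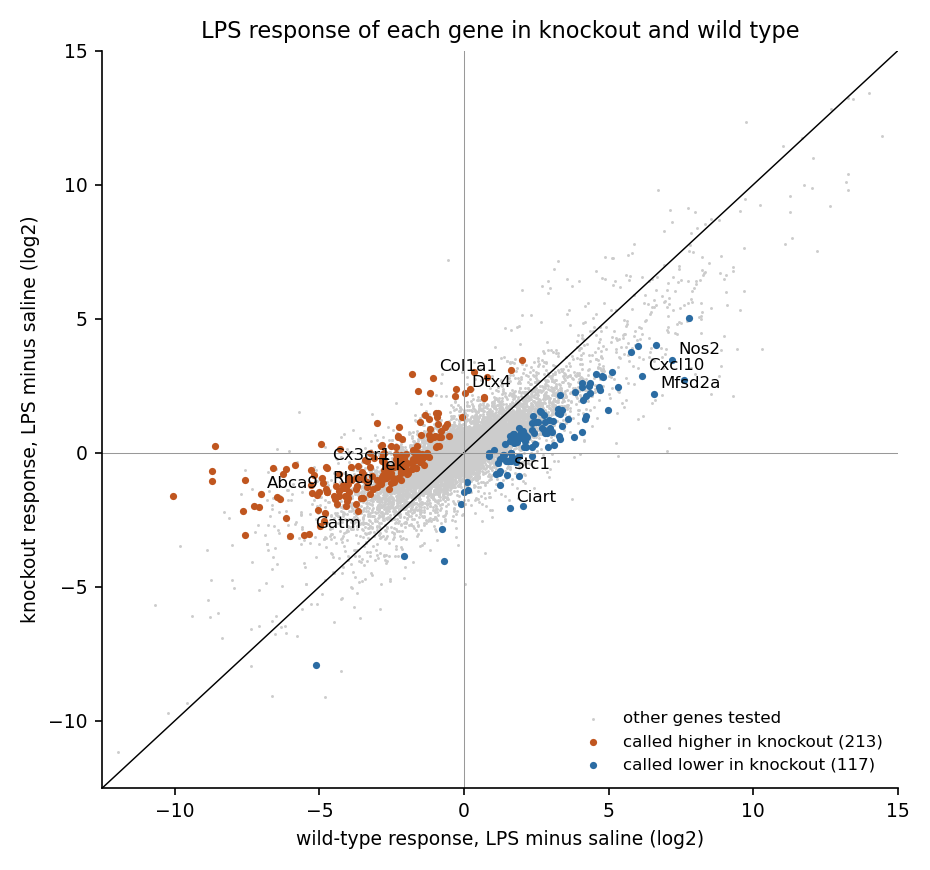
LPS response of every tested gene in the knockout (vertical axis, log2) against the wild type (horizontal axis, log2); the 213 genes called higher and the 117 called lower in the knockout are coloured and the line marks equal responses. Most coloured points lie between the line and the horizontal zero line, where the knockout response has the sign of the wild-type response and a smaller size.

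Among the genes whose response was called lower, several encode inducible defence proteins. Nos2, the inducible nitric oxide synthase, stood at 14.9, 5.69 and 5.18 CPM in knockout LPS kidneys and at 110.8, 102.1, 98.5 and 224.4 CPM in wild-type LPS kidneys. With saline it was at 0.491 to 1.13 CPM in knockout and 0.675 to 1.35 CPM in wild type. The LPS groups did not overlap and the saline groups did. Its response was 3.45 in the knockout and 7.19 in the wild type, a difference of -3.74 ± 0.75 SE (edgeR adjusted p = 0.0369). Cxcl10, an interferon-induced chemokine, stood at 37.7, 26.6 and 21.7 CPM in knockout LPS and at 314, 92.4, 147 and 616 CPM in wild-type LPS kidneys, with 3.38 to 5.53 CPM over the 6 saline libraries. Its difference was -3.29 ± 0.76 SE (adjusted p = 0.0460), again with no overlap under LPS. Further called differences with a smaller rise in the knockout were Sectm1b (-3.37 ± 0.49), Cd274, the immune checkpoint ligand PD-L1 (-2.85 ± 0.63), Tgm1, a transglutaminase (-2.84 ± 0.50), Upp2, a uridine phosphorylase (-3.25 ± 0.75), and Eif4ebp3, a binding protein of the cap-binding factor eIF4E (-2.90 ± 0.35).

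Promoters of 6 genes called lower are shown because they belong to the cytokine, interferon, NF-kB, immediate-early or clock lists described here and hold the motif their group is known for. The stretches run from 250 bases before to 50 bases after the RefSeq start of the gene (GRCm38.p6) and read 5′ to 3′ on the gene's strand. Capitals mark matches on either strand to the interferon-stimulated response element ISRE (GAAA, any 2 bases, GAAA), the AP-1 site (TGANTCA), the NF-kB site (GGG, any 2 bases, TTTCC) or the E-box of the clock factors (CACGTG), as named for each gene.
Cxcl10, ISRE and AP-1, chr5:92348840-92349139, minus strand: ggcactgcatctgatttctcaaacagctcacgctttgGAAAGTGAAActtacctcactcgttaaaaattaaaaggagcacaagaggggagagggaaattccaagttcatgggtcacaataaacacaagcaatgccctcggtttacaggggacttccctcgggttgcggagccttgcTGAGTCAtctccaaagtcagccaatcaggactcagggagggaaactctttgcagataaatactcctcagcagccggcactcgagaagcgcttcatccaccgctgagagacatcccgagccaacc
Gbp7, ISRE, chr3:142530086-142530385, plus strand: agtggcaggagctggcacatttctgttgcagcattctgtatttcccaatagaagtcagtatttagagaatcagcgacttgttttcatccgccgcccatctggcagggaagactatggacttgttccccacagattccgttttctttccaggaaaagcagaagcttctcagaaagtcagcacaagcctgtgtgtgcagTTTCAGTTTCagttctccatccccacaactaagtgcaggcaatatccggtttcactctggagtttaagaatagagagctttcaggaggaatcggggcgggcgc
Irgm1, ISRE in 2 overlapping matches and AP-1, chr11:48871371-48871670, minus strand: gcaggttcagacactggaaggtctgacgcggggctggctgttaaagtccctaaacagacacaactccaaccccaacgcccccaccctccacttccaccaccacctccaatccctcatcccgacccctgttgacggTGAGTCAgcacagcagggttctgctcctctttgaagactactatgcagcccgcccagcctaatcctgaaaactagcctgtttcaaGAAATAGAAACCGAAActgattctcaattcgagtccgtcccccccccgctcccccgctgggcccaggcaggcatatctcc
Nfkbia, NF-kB, chr12:55492598-55492897, minus strand: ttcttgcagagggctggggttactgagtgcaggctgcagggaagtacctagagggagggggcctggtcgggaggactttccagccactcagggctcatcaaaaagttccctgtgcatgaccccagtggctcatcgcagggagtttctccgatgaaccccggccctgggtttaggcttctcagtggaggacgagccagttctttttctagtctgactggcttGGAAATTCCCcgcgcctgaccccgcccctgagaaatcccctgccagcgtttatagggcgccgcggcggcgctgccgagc
Ciart, E-box in 3 matches, chr3:95882179-95882478, minus strand: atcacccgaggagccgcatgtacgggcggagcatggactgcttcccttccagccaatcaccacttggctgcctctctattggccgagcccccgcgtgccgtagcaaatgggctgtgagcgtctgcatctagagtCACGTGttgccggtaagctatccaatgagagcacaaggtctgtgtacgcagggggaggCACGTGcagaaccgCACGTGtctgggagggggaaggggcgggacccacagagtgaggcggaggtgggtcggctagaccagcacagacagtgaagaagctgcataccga
Per1, E-box, chr11:69098699-69098998, plus strand: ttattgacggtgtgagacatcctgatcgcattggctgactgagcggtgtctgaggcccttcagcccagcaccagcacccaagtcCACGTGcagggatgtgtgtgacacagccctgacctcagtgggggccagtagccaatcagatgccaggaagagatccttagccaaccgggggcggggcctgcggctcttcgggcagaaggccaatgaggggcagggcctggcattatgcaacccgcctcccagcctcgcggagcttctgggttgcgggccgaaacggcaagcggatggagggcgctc
Of the called genes, 88 of 117 lower and 153 of 213 higher had a promoter in the RefSeq table, as had 11316 of all tested symbols. The ISRE letters were in 13.6% of the promoters of genes called lower, 4.58% of those called higher, 3.84% of those of all tested genes and 3.44% of all 32851 promoters in the table. The NF-kB letters were in 6.82%, 2.61%, 2.18% and 1.63% of the same sets. The AP-1 letters were in 10.2%, 9.15%, 6.9% and 7.81%, and the E-box in 6.82%, 9.15%, 11.3% and 7.15%. These matches describe letters in a window and were not tested.

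In the interferon-related lists a minority of members passed the test, where 0.745% of all tested genes were called lower. Every called member of these lists was lower in the knockout. Among 16 tested interferon-inducible GTPases, which attack the vacuoles of intracellular microbes, 5 were called lower and none higher, with a median difference of -2.03 against 0.00 over all tested genes, and 16 of 16 estimates were negative. Gbp7 stood at 280, 109 and 105 CPM in knockout LPS kidneys and at 1013, 576, 479 and 629 CPM in wild-type LPS kidneys, with 23.6 to 33.1 CPM over the saline libraries, and its difference was -2.34 ± 0.48 SE (edgeR adjusted p = 0.0376). Irgm1 stood at 1134, 477 and 660 CPM in knockout LPS and at 3567, 1910, 1863 and 3406 CPM in wild-type LPS kidneys, a difference of -2.03 ± 0.45 SE (adjusted p = 0.0420). Neither gene's LPS groups overlapped. The other called members were Gbp5, Irgm2 and Igtp. The near-identical copies in this family make the split of reads between members uncertain.

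Of 32 interferon-stimulated antiviral genes 2 were called lower, where 0.745% of all tested genes were. The 2 were Samhd1, a hydrolase of deoxynucleotides (-2.15 ± 0.44), and Oasl1, of the oligoadenylate synthetase family (-1.96 ± 0.45). In this list 32 of 32 estimates were negative, with a median of -1.37. Among 15 genes of MHC class I presentation and the immunoproteasome 2 were called lower, the peptide transporter Tap1 (-1.92 ± 0.35) and the class I heavy chain gene H2-Q4 (-1.56 ± 0.33), with 15 of 15 estimates negative and a median of -0.93. None of 7 MHC class II genes was called by edgeR, DESeq2 or limma-voom, none had an unadjusted p below 0.05, and their median was 0.09. Cd74, the class II invariant chain, stood at 249.8, 312 and 214.9 CPM in knockout LPS kidneys and at 203 to 431 CPM in wild-type LPS kidneys, which overlapped. The counts of these groups rested on single libraries. The GTPase count was 15 without AKI-156 and 0 without AKI-320, AKI-381 or AKI-319, and the antiviral count was 20 without AKI-156 and 0 without any of the other 3. The class I count was 9 without AKI-156 and 0 without any of the other 3.

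Some genes of the first wave of LPS signalling had a lower response in the knockout, where 0.745% of all tested genes were called lower. Of 16 immediate-early genes outside AP-1, 6 were called lower (Egr1, Ier2, Ier3, Dusp1, Zfp36 and Nr4a1) and none higher, with a median of -1.45. That count was 9 without AKI-156, 1 without AKI-320 or AKI-381 and 3 without AKI-319. Zfp36, which encodes the mRNA-destabilising protein tristetraprolin, stood at 74.5, 60.8 and 64.9 CPM in knockout LPS kidneys and at 163.5, 141.1, 162.7 and 237.9 CPM in wild-type LPS kidneys. With saline it stood at 101.5, 82.7 and 67.2 CPM in knockout and at 47.7, 49.1 and 54.2 CPM in wild type. The genotypes were apart in both treatments and in opposite directions. Its difference was -2.14 ± 0.28 SE (edgeR adjusted p = 0.00670), of which 34.4% came from the saline groups. Egr1, an immediate-early transcription factor, stood at 46.3, 36.5 and 24.8 CPM in knockout LPS and at 81.6, 130.9, 128.8 and 235.8 CPM in wild-type LPS kidneys, against 25.2 to 36.6 CPM in knockout saline and 16.6 to 21.6 CPM in wild-type saline kidneys. It differed by -2.69 ± 0.45 SE (adjusted p = 0.0248) with a saline share of 25.3%. Ier3, a regulator of cell survival, differed by -2.84 ± 0.52, with a response of 0.29 in the knockout and 3.13 in the wild type.

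Of 16 AP-1 subunits 3 were called lower, Fos, Junb and Maff, where 0.745% of all tested genes were, and the median was -1.09. None was called without AKI-320, AKI-381 or AKI-319, and 8 were without AKI-156. Fos stood at 17.1, 12.4 and 9.11 CPM in knockout LPS and at 28.4, 24.9, 41.9 and 43.7 CPM in wild-type LPS kidneys, and at 30.6, 31.4 and 7.70 CPM in knockout saline and 4.76, 10.2 and 12.6 CPM in wild-type saline kidneys. Its LPS groups did not overlap, its saline groups did, and 48.3% of its difference of -2.77 ± 0.65 SE came from the saline groups (edgeR adjusted p = 0.0470). Junb differed by -1.86 ± 0.38 (saline share 26.5%), and Jun by -1.44 ± 0.40, which missed the threshold (adjusted p = 0.0728). Of 23 NF-kB genes 3 were called lower, all of them genes of inhibitors of the pathway, against 9 without AKI-156 and 1 without AKI-320, AKI-381 or AKI-319. Nfkbia, the inhibitor IkB-alpha, stood at 101.5, 100.2 and 67.7 CPM in knockout LPS and at 188.9, 159.0, 143.9 and 205.7 CPM in wild-type LPS kidneys, and at 37.7 to 42.4 CPM in knockout saline and 23.2 to 26.6 CPM in wild-type saline kidneys. It differed by -1.63 ± 0.26 SE (adjusted p = 0.0198), 41.1% from the saline groups, and its genotypes did not overlap under either treatment. Nfkbiz, an atypical nuclear inhibitor protein, differed by -1.82 ± 0.38, and Nfkbib was also called. The subunit genes Rela (-1.43 ± 0.36, adjusted p = 0.0569) and Nfkb1 (-0.63 ± 0.24, adjusted p = 0.145) were not called.

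Cytokine genes had a low median and few calls, where 0.745% of all tested genes were called lower. Of 25 tested cytokines and chemokines 1, Cxcl10, was called lower and none higher, with 22 negative estimates and a median of -1.83. There were 7 without AKI-156 and 0 without AKI-320, AKI-381 or AKI-319. Il6 stood at 18.0, 2.64 and 1.14 CPM in knockout LPS and at 165.8, 84.6, 24.8 and 47.1 CPM in wild-type LPS kidneys with 0 counts in all saline libraries, so it has no response fold and no interaction value. Ccl2, a monocyte chemokine, differed by -1.34 ± 0.88 (edgeR adjusted p = 0.388), Il1b by -2.39 ± 1.34 (adjusted p = 0.308) and Tnf by -1.11 ± 2.92 (adjusted p = 0.859), where Tnf had at most 0.135 CPM with saline. Of 16 LPS-sensing genes none was called by edgeR, 2 were by DESeq2, and 5 had an unadjusted p below 0.05, all lower. Cd14, the LPS co-receptor, stood at 683.7, 156.9 and 203.6 CPM in knockout LPS and at 941.2, 1114, 1629 and 1358 CPM in wild-type LPS kidneys and differed by -2.08 ± 0.60 (adjusted p = 0.0804). Of 16 M1-type macrophage markers 2 were called lower, Nos2 and Slc7a2. There were 7 without AKI-156 and 0 without AKI-320, AKI-381 or AKI-319. Slc7a2, a cationic amino acid transporter (-1.55 ± 0.32), had a response of -1.39 in the knockout and 0.15 in the wild type. Of 18 M2-type markers none was called by edgeR, 1 was by DESeq2 and 5 had an unadjusted p below 0.05, and Mrc1, the mannose receptor, differed by 0.95 ± 0.39 (adjusted p = 0.175). Arg1, the other classical M2-type marker, had 0 counts in wild-type saline kidneys and at most 2.13 CPM in any library.

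**Figure D2:**
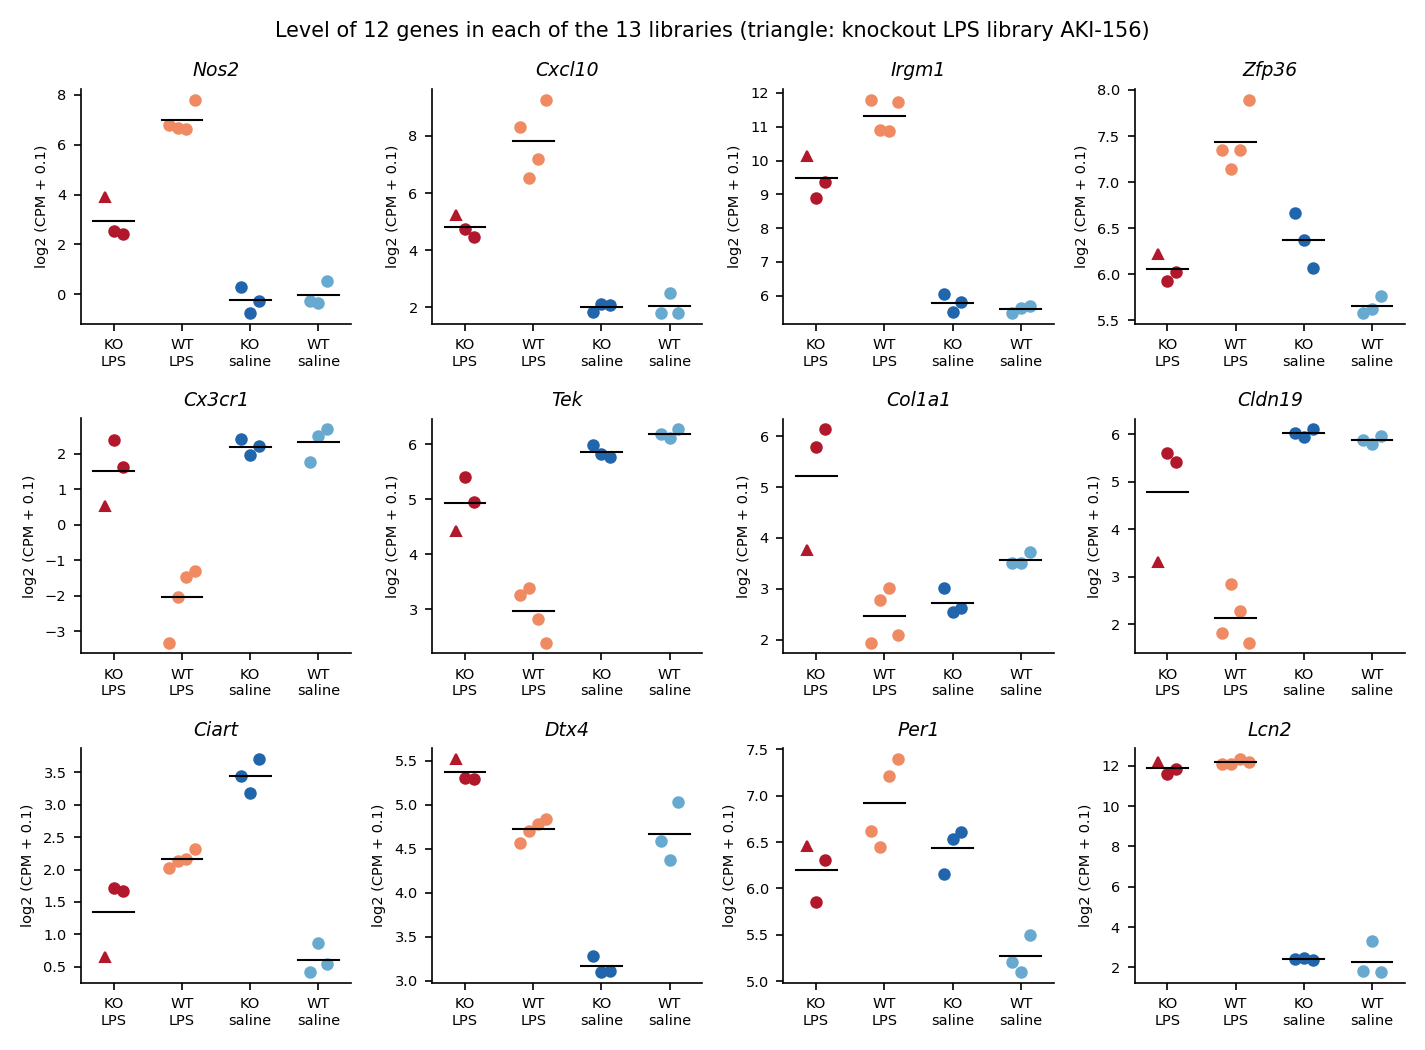
Level of 12 genes as log2 (CPM + 0.1) in each of the 13 libraries, with knockout LPS, wild-type LPS, knockout saline and wild-type saline side by side; points are libraries, bars are group means and the triangle is AKI-156. The knockout LPS points of Nos2, Cxcl10, Irgm1 and Zfp36 lie below all wild-type LPS points, those of Cx3cr1, Tek, Col1a1 and Cldn19 above them with AKI-156 nearest, while Ciart, Dtx4 and Per1 are apart between the saline groups and the Lcn2 points of both LPS groups overlap.

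Among genes called higher with a mean of at least 5 CPM, Abca9 had the largest difference. Abca9, a lipid transporter of the ABCA family, stood at 0.8997, 2.70 and 5.64 CPM in knockout LPS and at 0, 0.0715, 0.326 and 0 CPM in wild-type LPS kidneys, against 6.86 to 10.7 CPM in knockout saline and 13.2 to 15.5 CPM in wild-type saline kidneys. Its difference was 5.47 ± 0.92 SE (edgeR adjusted p = 0.0248) on counts near 0 in the wild-type LPS libraries. Its relative Abca8a differed by 4.35 ± 0.81. Kcnip2, a potassium channel subunit (4.63 ± 1.09), Wscd2 (3.77 ± 0.62), Crocc, a ciliary rootlet protein (3.73 ± 0.76), and Mtfp1, a protein of mitochondrial fission (3.52 ± 0.66), also had LPS levels below 3 CPM in each wild-type library.

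Along the nephron, a few genes of several segments were called higher in the knockout, as were 1.36% of all tested genes. A single call in a short list says little about its segment. Of 12 loop of Henle genes 3 were called higher and none lower, with a median of 1.19. Cldn19, a claudin of the thick ascending limb, stood at 9.90, 48.8 and 42.6 CPM in knockout LPS and at 3.45, 7.08, 4.75 and 2.96 CPM in wild-type LPS kidneys, with 55.9 to 69.1 CPM over the saline libraries, and differed by 2.74 ± 0.59 SE (edgeR adjusted p = 0.0405). The others were Ppp1r1b, a phosphatase inhibitor (2.31 ± 0.51), and Kcnj1, the potassium channel ROMK. Of 20 collecting duct genes 1 was called, Rhcg, an ammonia channel, at 5.78, 59.5 and 40.6 CPM in knockout LPS and 2.79 to 4.78 CPM in wild-type LPS kidneys (3.42 ± 0.72, adjusted p = 0.0392), and of 13 distal tubule genes Slc8a1, a sodium-calcium exchanger (1.83 ± 0.39). Without AKI-320, AKI-381 or AKI-319 none of these 3 lists had a call. Without AKI-156 the genes called higher numbered 5 in the loop of Henle list, 11 in the collecting duct list and 4 in the distal tubule list, and in DESeq2 3, 6 and 2.

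The proximal tubule was mixed. Of 28 genes 1 was called higher and 1 lower, against 1.36% and 0.745% of all tested genes, with a median of -0.54. These were Gatm, of creatine synthesis (2.30 ± 0.41), and Kap, an androgen-regulated proximal tubule protein (-2.03 ± 0.40). At an unadjusted p below 0.05 were 16 of the 28 genes, 12 lower and 4 higher. Without AKI-156 3 were called higher and 6 lower, and none were without AKI-320 or AKI-381. DESeq2 called 1 higher and 4 lower. Kap stood at 9944, 8188 and 7018 CPM in knockout LPS and at 28580, 19690, 16850 and 22060 CPM in wild-type LPS kidneys, against 7602 to 10560 CPM in knockout saline and 3970 to 8220 CPM in wild-type saline kidneys. Its LPS groups were apart and its saline groups overlapped. The summed level of the 28 genes was 15310 to 16080 CPM in knockout LPS and 26490 to 39890 CPM in wild-type LPS kidneys, 31700 to 35000 CPM in knockout saline and 22570 to 32060 CPM in wild-type saline kidneys. Kap made up much of it, and the other 27 genes summed to 6136 to 8932 CPM in knockout LPS and 7520 to 11400 CPM in wild-type LPS kidneys, which overlapped. Slc2a2, the glucose transporter GLUT2, differed by 3.27 ± 0.70 and stood at 14.9, 86.5 and 105.4 CPM in knockout LPS against 7.37 to 19.4 CPM in wild-type LPS kidneys, with AKI-156 inside the wild-type range. In the fatty acid oxidation list of 30 genes 1 was called, Cyp4a14, a fatty acid hydroxylase that also differs between the sexes in mouse kidney (2.48 ± 0.46), at 230.9, 508.5 and 785.3 CPM in knockout LPS and 63.3 to 103.3 CPM in wild-type LPS kidneys.

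Markers of stromal cells, vessels and macrophages held further calls, where 1.36% of all tested genes were called higher and 0.745% lower. Of 15 fibroblast, mesangial and pericyte genes 4 were called higher, all of them collagen genes (Col1a1, Col1a2, Col3a1 and Col6a1), with a median of 0.74. Col1a1 stood at 13.4, 54.9 and 70.5 CPM in knockout LPS and at 3.74, 6.79, 7.94 and 4.18 CPM in wild-type LPS kidneys, and at 5.70 to 8.04 CPM in knockout saline and 11.2 to 13.1 CPM in wild-type saline kidneys. The genotypes did not overlap under either treatment, the knockout being the higher one under LPS and the lower one with saline. Col1a1 rose in the knockout (2.81) and fell in the wild type (-1.06), and the difference was 3.87 ± 0.63 SE (edgeR adjusted p = 0.0208). Col1a2 differed by 2.44 ± 0.42, likewise with called responses of opposite sign. The summed level of the list was 892 to 914 CPM in knockout LPS and 668 to 868 CPM in wild-type LPS kidneys. Without AKI-320 or AKI-381 none of the list was called, and without AKI-156 there were 6.

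Of 17 endothelial identity genes 2 were called higher, with a median of 0.64. Tek, the angiopoietin receptor Tie2, stood at 21.5, 42.4 and 30.9 CPM in knockout LPS and at 9.53, 10.4, 6.97 and 5.16 CPM in wild-type LPS kidneys, and at 54.1 to 63.0 CPM in knockout saline and 68.9 to 77.2 CPM in wild-type saline kidneys, a difference of 2.31 ± 0.35 SE (edgeR adjusted p = 0.0176). Nrp1, a co-receptor of VEGF, differed by 1.46 ± 0.31. The list had 7 calls without AKI-156 and 1 without AKI-320, AKI-381 or AKI-319. Both genes had LPS groups that did not overlap. Sox18, an endothelial transcription factor outside that list, differed by 3.26 ± 0.70. In the coagulation and activation list F13a1, the A1 subunit of coagulation factor XIII, was called higher (3.92 ± 0.83) and F3, tissue factor, lower (-2.33 ± 0.55). F13a1 was of low abundance, with a mean of 1.63 CPM over all libraries, and 41.4% of its difference came from the saline groups. F3 stood at 45.3, 40.8 and 29.7 CPM in knockout LPS and at 288.6, 118.2, 119.3 and 388.7 CPM in wild-type LPS kidneys.

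Of 19 resident macrophage and monocyte markers 1 was called, Cx3cr1, the fractalkine receptor. It stood at 1.35, 5.16 and 2.96 CPM in knockout LPS and at 0, 0.143, 0.260 and 0.304 CPM in wild-type LPS kidneys, with 3.33 to 6.36 CPM over the saline libraries, and differed by 4.25 ± 0.78 SE (edgeR adjusted p = 0.0298). Adgre1, the macrophage marker F4/80, differed by 2.01 ± 0.62 and was not called (adjusted p = 0.0913). The summed level of the list was 318.9 to 367 CPM in knockout LPS and 256 to 278 CPM in wild-type LPS kidneys, and its part in the difference was not tested. Of 14 neutrophil markers none was called by edgeR or DESeq2 and 1 had an unadjusted p below 0.05, and their summed level was 3153 to 4871 CPM in knockout LPS and 4441 to 5262 CPM in wild-type LPS kidneys.

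**Figure D3:**
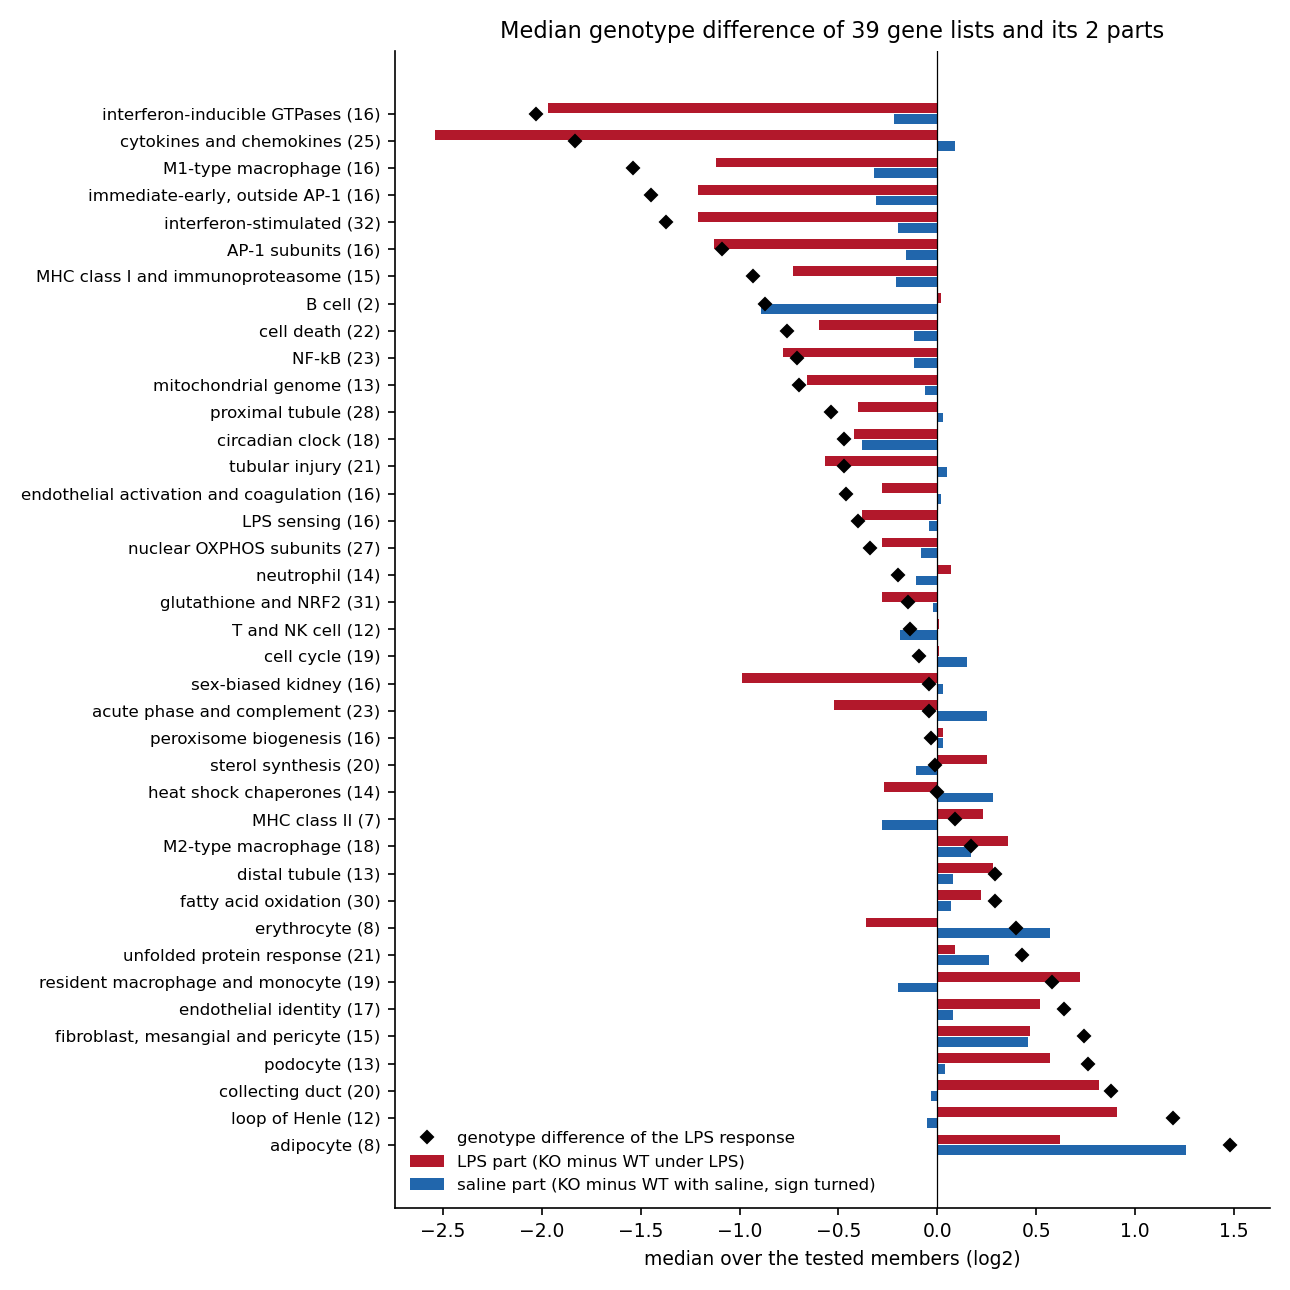
Median log2 genotype difference of the LPS response (diamonds) of 39 gene lists with the medians of its LPS part and saline part (bars), the number of tested members in brackets. Medians of the parts need not add up to the median of the whole. The interferon-inducible GTPases lie lowest at -2.03 and the adipocyte list highest at 1.48.

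The saline groups contributed a minority of the difference for most called genes. The saline share, the saline part as a percent of the whole difference, had a median of 19.2% over the 330 genes, with 25% of genes below 8.57% and 25% above 29.5%. It was above 50% in 20 genes, between 25% and 50% in 94, between 0% and 25% in 183 and below 0% in 33, where the saline groups differed in the direction that shrinks the difference. Over all tested genes the median was 19.9%, close to that of the called genes, but the spread was wider. There the share was above 50% in 4239 of 15703 genes (27%), against 6.06% of the called genes. It was between 25% and 50% in 2804, between 0% and 25% in 3838 and below 0% in 4822. The share divides by the whole difference, with a median absolute size of 0.47 over all tested genes and 1.97 over the called genes. A small divisor spreads the shares, so the wider spread and the 27% are favoured by how the called genes were chosen. Among the called genes the median share was 16.9% for those higher and 24.0% for those lower. Over all tested genes the SD of the saline part was 0.47, that of the LPS part 0.85 and that of the whole difference 1.01 on the log2 scale.

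The called genes were chosen on the sum of both parts, so their saline parts lean towards the sign of the sum by that choice. Genes chosen without the saline libraries gave another view. A fit of the 7 LPS libraries alone called 112 genes between the genotypes (0.713%), 52 higher and 60 lower. For these the median saline share was 2.64%, against 19.96% over all tested genes in the same separate fits. Choosing genes for a large LPS difference makes their saline shares small by that choice, so this view leans the other way. The saline difference had the opposite sign to the LPS difference in 61 of 112 (54.5%), against 57.2% of all tested genes. A fit of the 6 saline libraries alone called 10 genes (0.0637%), 6 higher and 4 lower in the knockout, and 5 of these were among the 330.

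The tests of the parts in the joint fit looked different. Under LPS 2361 genes differed between genotypes (15%), with 1373 higher (8.74%) and 988 lower (6.29%), and with saline 3 did (0.0191%), Gstk1, Ciart and Dtx4, while 582 had an unadjusted p below 0.05. Of the 330 genes 320 were called in the LPS comparison of the joint fit and 2 in its saline one. The fit of the 7 LPS libraries alone called 72 of the 330. The joint fit shares 1 spread among groups whose spread differed. The median SD of log2 CPM was 0.36 in knockout LPS, 0.38 in wild-type LPS, 0.17 in knockout saline and 0.17 in wild-type saline kidneys, and the count under LPS was 112 in the fit of the LPS libraries alone.

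**Figure D4:**
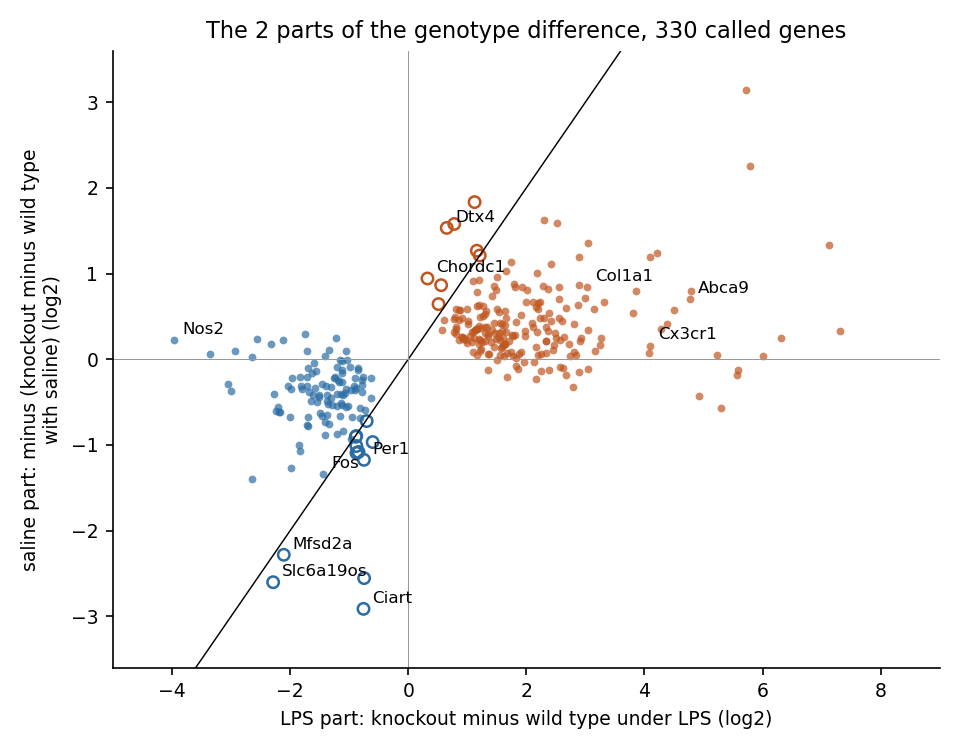
Saline part (vertical axis, log2) against LPS part (horizontal axis, log2) of the 330 called genes, in colour for higher and lower in the knockout; open circles are the 20 genes with a saline share above 50% and the diagonal marks equal parts. Ciart lies furthest down at a saline part of -2.91 with an LPS part of -0.76.

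In the 20 genes with a share above 50% the estimated difference came for the larger part from the saline groups. The saline difference itself was called in 2 of the 20 in the joint fit, Ciart and Dtx4. It was called in 4 of them in the fit of the 6 saline libraries alone. The shares carry no error estimate. Ciart, a repressor of the circadian clock, stood at 1.48, 3.17 and 3.07 CPM in knockout LPS and at 3.96, 4.29, 4.36 and 4.86 CPM in wild-type LPS kidneys. With saline it stood at 10.7, 8.95 and 12.95 CPM in knockout and at 1.24, 1.72 and 1.35 CPM in wild type. The genotypes were apart in both treatments, in opposite directions, and its difference of -3.67 ± 0.42 SE (edgeR adjusted p = 0.00375) had a saline share of 79.4%. Per1, a core clock repressor, stood at 87.7, 57.6 and 79.0 CPM in knockout LPS and at 98.5, 86.8, 148.7 and 168.7 CPM in wild-type LPS kidneys, and at 71.3, 92.5 and 97.7 CPM in knockout saline and 36.8, 34.1 and 45.0 CPM in wild-type saline kidneys (-1.92 ± 0.35, adjusted p = 0.0298, saline share 61.0%). Its LPS groups overlapped and its saline groups did not. Of 18 clock genes 3 were called, Ciart, Per1 and Cry2, all lower, where 0.745% of all tested genes were. The median of the list was -0.47, and the hour of sampling is not stated in the sources used.

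Dtx4, an E3 ubiquitin ligase of the Deltex family, was the counterpart in the other direction. It stood at 45.8, 39.4 and 38.9 CPM in knockout LPS and at 23.5, 25.8, 27.4 and 28.6 CPM in wild-type LPS kidneys, and at 9.61, 8.46 and 8.53 CPM in knockout saline and 23.9, 20.5 and 32.7 CPM in wild-type saline kidneys. Its response was 2.22 in the knockout and 0.04 in the wild type, the difference was 2.19 ± 0.25 SE (edgeR adjusted p = 0.00375) and the saline share 70.2%. Chordc1, a co-chaperone of HSP90, had 74.3% (1.27 ± 0.31), Mgme1, a nuclease of mitochondrial DNA, 60.8% (1.42 ± 0.34), Peo1, the mitochondrial DNA helicase Twinkle, 55.7% (1.16 ± 0.24), and Thrsp, a regulator of lipid synthesis, 50.01% (2.42 ± 0.58).

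None of 8 adipocyte genes was called by edgeR, 1 was by DESeq2 and 3 had an unadjusted p below 0.05, with 8 of 8 estimates positive, a median of 1.48 and a median saline part of 1.26. Adipoq, the fat-cell hormone adiponectin, stood at 3.02, 4.17 and 0 CPM in knockout LPS and at 0.220, 2.001, 0.456 and 2.51 CPM in wild-type LPS kidneys, and at 4.14, 16.6 and 1.37 CPM in knockout saline and 8.02, 37.2 and 39.8 CPM in wild-type saline kidneys. Wild-type saline N2 and N3 were the highest libraries, and N2 was the highest knockout saline library. The summed level of the 8 genes was 259 to 417 CPM in knockout LPS, 220 to 295 CPM in wild-type LPS, 178 to 370 CPM in knockout saline and 234 to 669 CPM in wild-type saline kidneys, and its part in the differences of other genes was not tested.

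Lower in the knockout with a share above 50% were also Mfsd2a, a transporter of lysophospholipids, and Slc6a19os, a transcript on the opposite strand of an amino acid transporter gene. Mfsd2a stood at 96.3, 15.7 and 49.9 CPM in knockout LPS and at 245.0, 182.4, 223.7 and 278.9 CPM in wild-type LPS kidneys, and at 5.53, 19.6 and 10.4 CPM in knockout saline and 3.33, 1.29 and 2.71 CPM in wild-type saline kidneys. It differed by -4.39 ± 0.79 SE (edgeR adjusted p = 0.0287), 52.0% from the saline groups, with no overlap of genotypes in either treatment. Slc6a19os differed by -4.89 ± 0.77 (share 53.2%), but had at most 1.25 CPM with saline, and the counting is not known to use strand. Nkiras2, an NF-kB inhibitor-interacting protein, had 61.6% (-1.57 ± 0.32), Glt1d1, a glycosyltransferase domain protein, 56.2% (-1.92 ± 0.34), and Cyp2j9, a cytochrome P450, 55.5% (-1.97 ± 0.32).

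In 17 of the 330 genes the LPS responses were called in both genotypes with opposite signs, 12 higher in the knockout and 5 lower. Among the 5, Stc1, the secreted regulator stanniocalcin-1, stood at 4.50, 3.87 and 5.64 CPM in knockout LPS and at 23.1, 14.2, 16.5 and 19.8 CPM in wild-type LPS kidneys, with 5.48 to 9.26 CPM over the saline libraries. It fell in the knockout (-0.83) and rose in the wild type (1.495), a difference of -2.33 ± 0.32 SE (edgeR adjusted p = 0.00736), with a saline share of 14.96%. Ttr, the thyroxine carrier transthyretin (-2.47 ± 0.49), Hist1h1c, a linker histone (-1.88 ± 0.37), and Cyp2j9 behaved likewise.

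Several groups at the centre of LPS injury and of the protein's own compartment had few or no called members, where 2.1% of all tested genes were called. Lcn2, the injury marker NGAL, stood at 4591, 3101 and 3678 CPM in knockout LPS and at 4262, 4295, 5202 and 4717 CPM in wild-type LPS kidneys, against 5.01 to 5.52 CPM in knockout saline and 3.32 to 9.70 CPM in wild-type saline kidneys (-0.23 ± 0.45, edgeR adjusted p = 0.802). Havcr1, the injury marker Kim-1, had a difference of 3.08 ± 1.36 (adjusted p = 0.203) that came from the saline side, where wild-type N2 stood at 33.7 CPM and the other 5 saline libraries at 0.477 to 1.47 CPM. Of 21 tubular injury genes 1 was called, Plaur, the urokinase receptor (-1.79 ± 0.42), and of 23 acute-phase and complement genes none by edgeR and 1 by DESeq2, with 2 at an unadjusted p below 0.05. Saa1, serum amyloid A1, differed by -2.61 ± 1.03 (adjusted p = 0.158) on saline levels of at most 0.552 CPM.

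None of the 13 mitochondrially encoded genes and none of 27 nuclear genes of oxidative phosphorylation were called by edgeR or DESeq2. In each list 4 genes had an unadjusted p below 0.05, all lower, and the medians were -0.70 and -0.34. The second median turned to 0.03 when libraries were scaled by their totals without TMM factors. Estimates were negative for 13 of 13 and 25 of 27 genes. Without AKI-156 3 genes of each list were called lower, and none without AKI-320, AKI-381 or AKI-319. In limma-voom with a quality weight for each library 7 and 3 were called lower. The gene mt-Co1, a subunit of cytochrome oxidase, stood at 54480, 38110 and 34240 CPM in knockout LPS and at 89870, 63070, 48750 and 71810 CPM in wild-type LPS kidneys, which overlapped (-0.79 ± 0.36, adjusted p = 0.218). Of 31 glutathione and NRF2 genes Sod2, the mitochondrial superoxide dismutase, was called lower (-1.15 ± 0.28), and of 16 peroxisome biogenesis genes Pex16 (-1.08 ± 0.24). Sod2 stood at 455.6, 307.2 and 251.6 CPM in knockout LPS and at 793.0, 619.3, 699.8 and 844.7 CPM in wild-type LPS kidneys, with 243.2 to 255.5 CPM over the saline libraries. Of 21 genes of the unfolded protein response 1 was called, Sdf2l1, an endoplasmic reticulum chaperone component (2.01 ± 0.48). None of 22 cell death genes was called by edgeR, with 5 called by DESeq2 and 9 at an unadjusted p below 0.05.

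The remaining lists held few calls, where 2.1% of all tested genes were called. None of 13 podocyte, 8 erythrocyte, 12 T and NK cell, 2 B cell, 19 cell cycle, 20 sterol synthesis or 14 heat shock chaperone genes was called by edgeR, with 15 of these 88 genes at an unadjusted p below 0.05. DESeq2 called 1 podocyte, 1 B cell, 1 cell cycle and 3 sterol synthesis genes. In limma-voom no list without an edgeR call had a call. Of 16 genes known to differ between the sexes in mouse kidney Cyp4a14 was called higher and Kap lower, with a median difference of -0.04, a median LPS part of -0.99 and a median saline part of 0.03.

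The number of genes that passed depended on which libraries were in the fit. Under LPS the genotype groups did not overlap in 306 of the 330 genes (92.7%), against 18.2% of all tested genes. The 330 were called on these same libraries, and 320 of them also in the LPS comparison, so that choice favours separation. Among the knockout LPS libraries AKI-156 was the nearest to the wild-type LPS mean in 297 of the 330 (90.0%), against 8907 of all 15703 tested genes (56.7%). For genes called higher its median distance above the wild-type LPS mean was 0.84 on the log2 scale, against 2.03 in AKI-320 and 1.98 in AKI-381. For genes called lower it was -1.01, against -1.46 and -1.504. The count of called genes was 2529 without AKI-156, 18 without AKI-320, 14 without AKI-381 and 46 without the wild-type library AKI-319. It was 10 to 40 without any 1 of the 6 saline libraries. All 330 genes kept their sign in each of these fits, and 9 were called in every one of the 13: Ciart, D3Ertd751e, Dcdc2a, Dtx4, Eif4ebp3, Mitf, Ptpru, Stc1 and Zfp36.

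**Figure D5:**
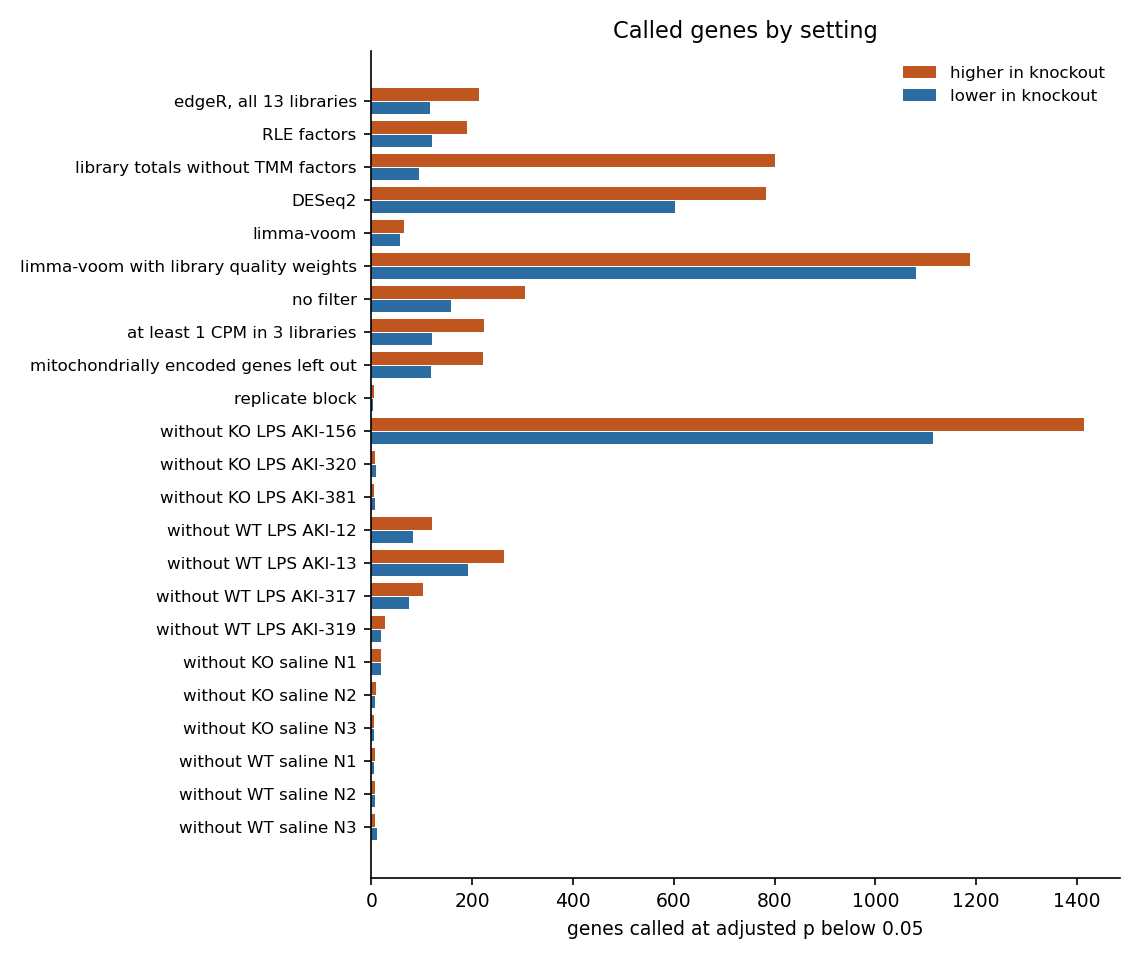
Number of genes called higher and lower in the knockout in each fit, with all 13 libraries at the top and fits without 1 library at the bottom. The count runs to 2529 without AKI-156 and down to 9 with a block for the saline numbers.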

How the data were processed

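Total RNA of whole renal tissue from 13 mice was sequenced, and groups were taken from the genotype and treatment labels. Per the file headers, the authors deposited raw counts and FPKM per gene. The FPKM equalled counts divided by gene length and library total within 0.0976%, so only counts entered a test. HISAT2, TopHat, TopHat2 2.0.9, edgeR and the build hg38 are named, with no role, in the submitters' processing notes. The identifiers are mouse, and 34267 of 34745 were found in GENCODE M21 on the same chromosome. The strand setting was not given in the sources used here.

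In R 4.3.3, edgeR 4.0.16 (filterByExpr, minimum count 10, TMM factors 0.772 to 1.19, quasi-likelihood test, a mean per group) was fitted to all 13 libraries. Called means a Benjamini-Hochberg adjusted p below 0.05 over all tested genes. Fold changes are log2 ± SE, the fold divided by the square root of F. The script was tested on simulated counts. No 2 libraries agreed within sampling noise.

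The contrast, the 39 gene lists and the tests were chosen with earlier results of these data known. Genes with values are, with a mean of at least 5 CPM, the 10 largest called differences in each direction, the 6 with the smallest p and a saline share above 50% in each direction, and the 6 with opposite called responses. Added to these were at most 2 called members per list, or the most abundant member where none was called, and a fixed panel. Of these, 1 gene is not reported here. Other names were picked after their values were seen. Alternatives used limma 3.58.1 and DESeq2 1.42.0.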

Additional observations from a re-analysis of the deposited data

Results flagged for a closer look

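Each of these results was picked out because the effect of LPS differed between the genotypes by the test of the difference itself, which called 330 genes. Values are log2, knockout response minus wild-type response.

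Of the named genes 26 were higher in the knockout, and larger differences among genes outside the naming rule are not listed. Above 3 lay Abca9 at 5.47, Kcnip2 at 4.63, Abca8a at 4.35, Cx3cr1 at 4.25, F13a1 at 3.92, Col1a1 at 3.87, Wscd2 at 3.77, Crocc at 3.73, Mtfp1 at 3.52, Rhcg at 3.42, Slc2a2 at 3.27 and Sox18 at 3.26. Between 2 and 3 lay Cldn19 at 2.74, Cyp4a14 at 2.48, Col1a2 at 2.44, Thrsp at 2.42, Tek at 2.31, Ppp1r1b at 2.31, Gatm at 2.30, Dtx4 at 2.19 and Sdf2l1 at 2.01. Smaller were Slc8a1 at 1.83, Nrp1 at 1.46, Mgme1 at 1.42, Chordc1 at 1.27 and Peo1 at 1.16.

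The other 36 named genes were lower in the knockout. Below -3 lay Slc6a19os at -4.89, Mfsd2a at -4.39, Nos2 at -3.74, Ciart at -3.67, Sectm1b at -3.37, Cxcl10 at -3.29 and Upp2 at -3.25. Between -3 and -2 lay Eif4ebp3 at -2.90, Cd274 at -2.85, Tgm1 at -2.84, Ier3 at -2.84, Fos at -2.77, Egr1 at -2.69, Ttr at -2.47, Gbp7 at -2.34, F3 at -2.33, Stc1 at -2.33, Samhd1 at -2.15, Zfp36 at -2.14, Kap at -2.03 and Irgm1 at -2.03. Closer to 0 were Cyp2j9 at -1.97, Oasl1 at -1.96, Per1 at -1.92, Glt1d1 at -1.92, Tap1 at -1.92, Hist1h1c at -1.88, Junb at -1.86, Nfkbiz at -1.82, Plaur at -1.79, Nfkbia at -1.63, Nkiras2 at -1.57, H2-Q4 at -1.56, Slc7a2 at -1.55, Sod2 at -1.15 and Pex16 at -1.08.

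Among the 4 wild-type LPS libraries 1 lay apart from the other 3 in 4 of 95 genes examined. Chance gives about 1 in 20 for any of the 4 libraries. All 4 cases fell on AKI-319, for which alone that rate is lower, and this was not tested. Nos2 stood at 224.4 CPM there and at 98.5 to 110.8 CPM in the other libraries, Plaur at 109.8 CPM against 61.8 to 69.3, Tgm2, a transglutaminase, at 1259 CPM against 775 to 850, and Xist at 0.683 CPM against 0.143 to 0.195.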

How the results depend on the processing

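All 330 called genes kept their direction in each of the 22 other fits in which they were tested, but the number passing the threshold did not hold. It was 895 (801 higher and 94 lower) when libraries were scaled by their totals alone, which moved the median of all genes by 0.37 on the log2 scale, 1385 (783 and 602) in DESeq2, 123 (65 and 58) in limma-voom and 2268 (1188 and 1080) in limma-voom with a quality weight for each library, where AKI-156 had the lowest weight, 0.243. Leaving out 1 library gave 10 to 2529 called genes, 5 to 1414 higher and 5 to 1115 lower.

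The median saline share was 23.5% in limma-voom, 15.8% with quality weights and 13.04% to 36.1% without 1 library. Genes with a share above 50% numbered 40 with library totals, 114 in DESeq2, 8 in limma-voom, 91 with quality weights, 31 without a filter and 2 to 82 without 1 library. A smaller response of the same sign in the knockout was found in 63.6% of called genes with library totals, 67.5% in limma-voom and 40.0% to 73.0% without 1 library. Fits of 1 treatment alone called 10 genes with saline and 112 under LPS, against 3 and 2361 in the joint fit.

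With a replicate block for the shared saline numbers 9 genes were called (5 higher and 4 lower), with a median saline share of 33.9%, 2 genes above 50% and 44.4% with a smaller response. Nothing says that these numbers pair the mice, and deviations of same-numbered saline libraries correlated at 0.018, -0.05 and -0.03. Causes of these changes were not tested. Counts of 59 called genes averaged below 5 CPM, and 7 had a group with 0 counts throughout.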
